A study of Macaca mulatta with 4 samples.

Results

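Circulating immune cells of rhesus macaque (Macaca mulatta) were compared between 2 single-cell libraries, one made 8 weeks and one made 4 weeks after transplantation of islets derived from human pluripotent stem cells. The series holds 6993 labelled cells in 4 libraries, each a group of 1, and 4462 of those cells belong to the compared pair. The 4 wpt library (wpt, weeks post-transplantation) has 1882 cells and the 8 wpt library has 2580. The other libraries precede the graft, 1 before and 1 after immunosuppression, and are not used in the comparison. Both compared times come after the immunosuppression in the order of the labels. The drugs, whether they were still given at 4 or 8 wpt, and the animal, age and sex behind each library are not given in the sources used here. Gene levels were compared in the 5 cell type labels of the authors that reach 50 cells in both libraries, which together hold 4214 cells. They are T cells (889 at 4 wpt, 1174 at 8 wpt), natural killer (NK) cells (270 and 659), B cells (114 and 178), CD14+ monocytes (312 and 346) and MS4A7+ monocytes (207 and 65). Shares of cells were compared for all 9 labels.

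Peripheral blood mononuclear cells are the lymphocytes and monocytes of the circulation. T cells recognise foreign peptides and can reject a graft, NK cells kill targets without prior sensitisation, and B cells make antibody and present antigen. CD14 marks classical monocytes, which are phagocytic and enter inflamed tissue, while MS4A7, CDKN1C and the complement C1q genes are used as markers of nonclassical monocytes, which patrol vessel walls.

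A library is a single sample, so no difference between the times could be set against the spread between animals or between preparations, and no p-value is given. Unique molecular identifiers (UMIs) were added up within a class and library and scaled to CPM, the count that 1000000 UMIs of that class would hold. Each ratio of 8 wpt to 4 wpt has an exact 95% interval, printed in parentheses after the fold, which covers counting error alone. A gene was called higher or lower where the levels differed by at least 1.5-fold and the interval was clear of 1, among genes with 20 or more UMIs over both libraries. Cells were deeper at 4 wpt, with a median of 3551 UMIs per cell against 1877 at 8 wpt (T cells 3626 and 1810, NK cells 3943 and 1758, B cells 3890 and 2134.5), whereas the monocyte labels were close in depth (CD14+ 3190 and 2853.5, MS4A7+ 1945 and 2023). The libraries share 2 cell barcodes. Marker lists of T cells, NK cells, CD14+ monocytes and MS4A7+ monocytes were highest in the labels of those names in both libraries, and the B cell list was highest in the naive B label and next in the B label. CD3D, CD3E or CD3G, the invariant chains of the T cell receptor complex, gave a UMI in 98.5% of T cells at 4 wpt and 99.3% at 8 wpt. They gave a UMI in 41.9% and 34.7% of NK cells, 22.8% and 16.9% of B cells, 3.85% and 4.34% of CD14+ monocytes and 1.93% and 7.69% of MS4A7+ monocytes. Summed, the 3 chains stood at 408 and 477 CPM in NK cells against 2539 and 2773 CPM in T cells.

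NK cells and naive B cells took a larger share of labelled cells at 8 wpt, and MS4A7+ monocytes a smaller one. NK cells were 14.3% of labelled cells at 4 wpt and 25.5% at 8 wpt, 1.78-fold higher (1.54 to 2.06). Naive B cells, which have not yet met antigen, were 0.744% (14 cells) and 3.84% (99 cells), 5.16-fold higher (2.93 to 9.78). Within the B lineage they went from 10.9% of 128 cells to 35.7% of 277. MS4A7+ monocytes were 11.0% at 4 wpt and 2.52% at 8 wpt, 4.37-fold lower (3.29 to 5.86), and went from 39.9% to 15.8% of all monocytes. CD14+ monocytes were 16.6% and 13.4%, 1.24-fold lower (1.06 to 1.44), and both monocyte labels together went from 27.6% to 15.9%. The proliferating NK/T label was 2.18% (41 cells) and 1.16% (30 cells), 1.87-fold lower (1.14 to 3.11). T cells (47.2% and 45.5%), B cells (6.06% and 6.90%) and dendritic cells (1.22% and 1.12%) had ratio intervals that include 1. These are shares and not counts per volume of blood, so a share can move because another label moved.

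The label Platelet held 12 cells at 4 wpt and none of 2580 at 8 wpt, which by the floor of 3 counts allows a share of up to 0.116% (the exact Clopper-Pearson upper bound is 0.143%). The data go against its name. Its cells carried 3 UMIs over the 8 platelet markers, all PPBP and in 2 cells. CPA3 (19 UMIs), MS4A2 (19), GATA2 (14) and IL4 (6), genes known from basophils and mast cells, were among its 10 leading genes.

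**Figure D1:**
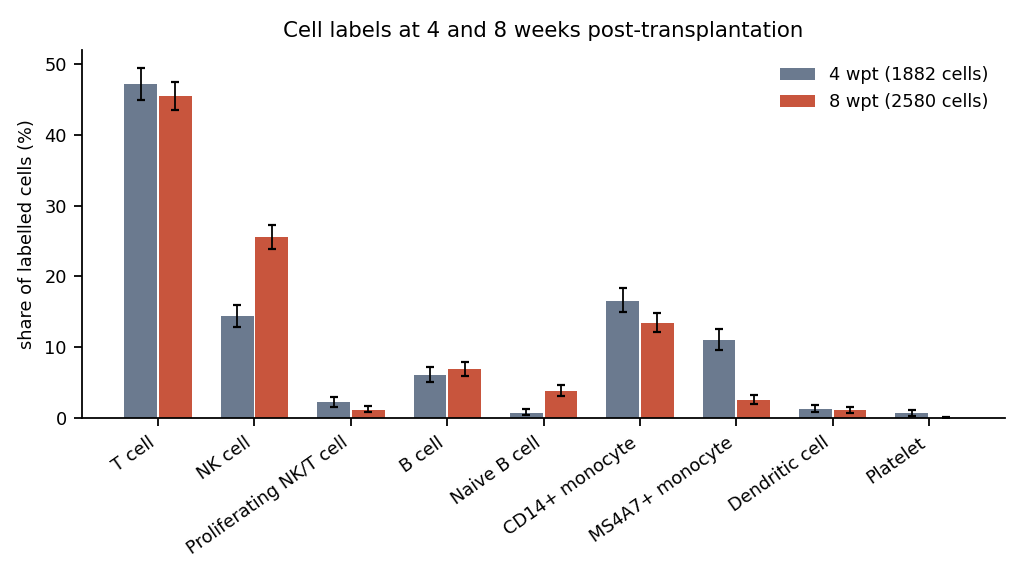
Share of labelled cells (%) for each of the 9 cell type labels at 4 wpt (grey) and 8 wpt (red). Bars are the single value of each library and error bars are exact Clopper-Pearson 95% intervals, which cover counting error only. NK cells (14.3% and 25.5%) and MS4A7+ monocytes (11.0% and 2.52%) stand apart between the times, and T cells (47.2% and 45.5%) do not.

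Across genes, between 3.80% and 7.74% of those measured were called in a given class and direction. In T cells 374 of 9142 genes were higher (4.09%) and 451 lower (4.93%). NK cells had 315 of 7574 higher (4.16%) and 290 lower (3.83%), and B cells 230 of 5599 higher (4.11%) and 242 lower (4.32%). CD14+ monocytes had 344 of 7183 higher (4.79%) and 273 lower (3.8%). MS4A7+ monocytes had 221 of 4584 higher (4.82%) and 355 lower (7.74%). Counts of called list members given below are to be read beside these shares of the same class. The numbers of genes called do not rank the classes by how much they differed, since class totals ran from 145638 UMIs in MS4A7+ monocytes at 8 wpt to 3171276 in T cells at 4 wpt. With every class and library thinned to 145638 UMIs, 73 genes were higher and 61 lower in T cells, against 92 and 94 in B cells and 196 lower in MS4A7+ monocytes. The number higher in MS4A7+ monocytes then stayed within 1.5 times of 221.

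Few of these genes were called in every class. Of 3856 genes measured in all 5, 4 were higher everywhere (0.104%) and 7 were lower everywhere (0.182%), and 2661 were called in none. A call in exactly 1 class was made for 907 genes. Called genes were higher in 1 class in 496 cases and in 2 classes in 75, and lower in 1 class in 501 cases and in 2 in 102. Of the 1195 genes called in at least 1 class, 50 were higher in one class and lower in another. The shared counts rest on few genes and moved with the processing. Without possible doublets 1 gene was higher in all 5 classes and 9 were lower, with cells thinned to 1000 UMIs 2 were higher and 4 lower, and with all class totals thinned to 145638 UMIs 0 were higher and 4 lower. The last 2 settings also left fewer genes measured in all 5 classes.

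The 4 genes higher in all 5 classes were RANBP1, a regulator of the Ran GTPase in nuclear transport, NDUFB1, a subunit of respiratory complex I, MORF4L1, a chromatin reader of histone acetyltransferase complexes, and MED31, a subunit of the Mediator complex of transcription. RANBP1 was measured at 63.4 and 108 CPM (1.71-fold higher, 1.41 to 2.07) in T cells and 62.9 and 130.5 CPM (2.07-fold higher, 1.1 to 3.81) in MS4A7+ monocytes, with 1.78-fold higher (1.31 to 2.44) in NK cells, 1.65-fold higher (1.1 to 2.47) in B cells and 1.59-fold higher (1.16 to 2.2) in CD14+ monocytes. NDUFB1 was the most abundant of the 4 at 284 and 489 CPM (1.72-fold higher, 1.58 to 1.88) in T cells and 482 and 806 CPM (1.67-fold higher, 1.5 to 1.86) in CD14+ monocytes. The ratios of NDUFB1 lay close together, from 1.52-fold in B cells to 1.73-fold in MS4A7+ monocytes. MORF4L1 ranged from 145 and 218 CPM (1.51-fold higher, 1.23 to 1.85) in CD14+ monocytes to 132 and 213 CPM (1.61-fold higher, 1.41 to 1.84) in T cells. MED31 differed from 43.4 and 65.4 CPM (1.51-fold higher, 1.03 to 2.21) in CD14+ monocytes to 54.5 and 137 CPM (2.52-fold higher, 1.33 to 4.69) in MS4A7+ monocytes.

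FKBP5 had the widest range of ratios among the named genes that were lower in all classes. It encodes a co-chaperone of the glucocorticoid receptor and is itself switched on by glucocorticoids. FKBP5 stood at 193 CPM at 4 wpt and 81.5 CPM at 8 wpt, 2.37-fold lower (2.0 to 2.81) in T cells and 147 CPM at 4 wpt and 51 CPM at 8 wpt, 2.88-fold lower (2.13 to 3.94) in NK cells. B cells had 80.8 and 34.7 CPM (2.33-fold lower, 1.24 to 4.65) and CD14+ monocytes 136 and 64.5 CPM (2.11-fold lower, 1.58 to 2.85). In MS4A7+ monocytes FKBP5 was found with 117 UMIs at 4 wpt and 4 at 8 wpt (245 and 27.5 CPM), 8.94-fold lower (3.4 to 33.3). Every class was lower at 8 wpt, and the order changed, since MS4A7+ monocytes had the highest level of FKBP5 at 4 wpt and the lowest at 8 wpt. With each cell thinned to 1000 UMIs, the share of cells with an FKBP5 UMI went from 17.8% to 7.31% in T cells, from 16.2% to 4.94% in NK cells, from 9.26% to 2.91% in B cells and from 13.4% to 5.39% in CD14+ monocytes. In MS4A7+ monocytes it went from 22.3% to 0 of 54 cells. The unthinned shares were 46.1% and 13.2% in T cells.

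The other named genes lower in every class were ND2, MDM2 and AKAP13, and 3 further gene rows without a symbol. ND2 is a mitochondrially encoded subunit of complex I, read at 584 and 275 CPM (2.12-fold lower, 1.94 to 2.33) in T cells, 821 and 376 CPM (2.18-fold lower, 1.8 to 2.65) in B cells and 1456 and 652 CPM (2.23-fold lower, 1.8 to 2.8) in MS4A7+ monocytes. NK cells (2.05-fold lower (1.81 to 2.33)) and CD14+ monocytes (1.8-fold lower (1.6 to 2.01)) had the same direction for ND2. MDM2, the ubiquitin ligase that restrains p53, went from 28.4 and 15.2 CPM (1.86-fold lower, 1.24 to 2.85) in T cells to 182 and 41.2 CPM (4.43-fold lower, 1.95 to 12.4) in MS4A7+ monocytes, where the 8 wpt value rests on 6 UMIs. In NK cells MDM2 was 35.3 and 15.9 CPM (2.22-fold lower, 1.24 to 4.08), but its log2 ratio was 1.22 with all class totals thinned to the same UMIs. AKAP13, an anchor of protein kinase A and an activator of RhoA, was 204 and 135 CPM (1.51-fold lower, 1.23 to 1.87) in NK cells and 266 and 109.9 CPM (2.42-fold lower, 1.44 to 4.37) in MS4A7+ monocytes.

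**Figure D2:**
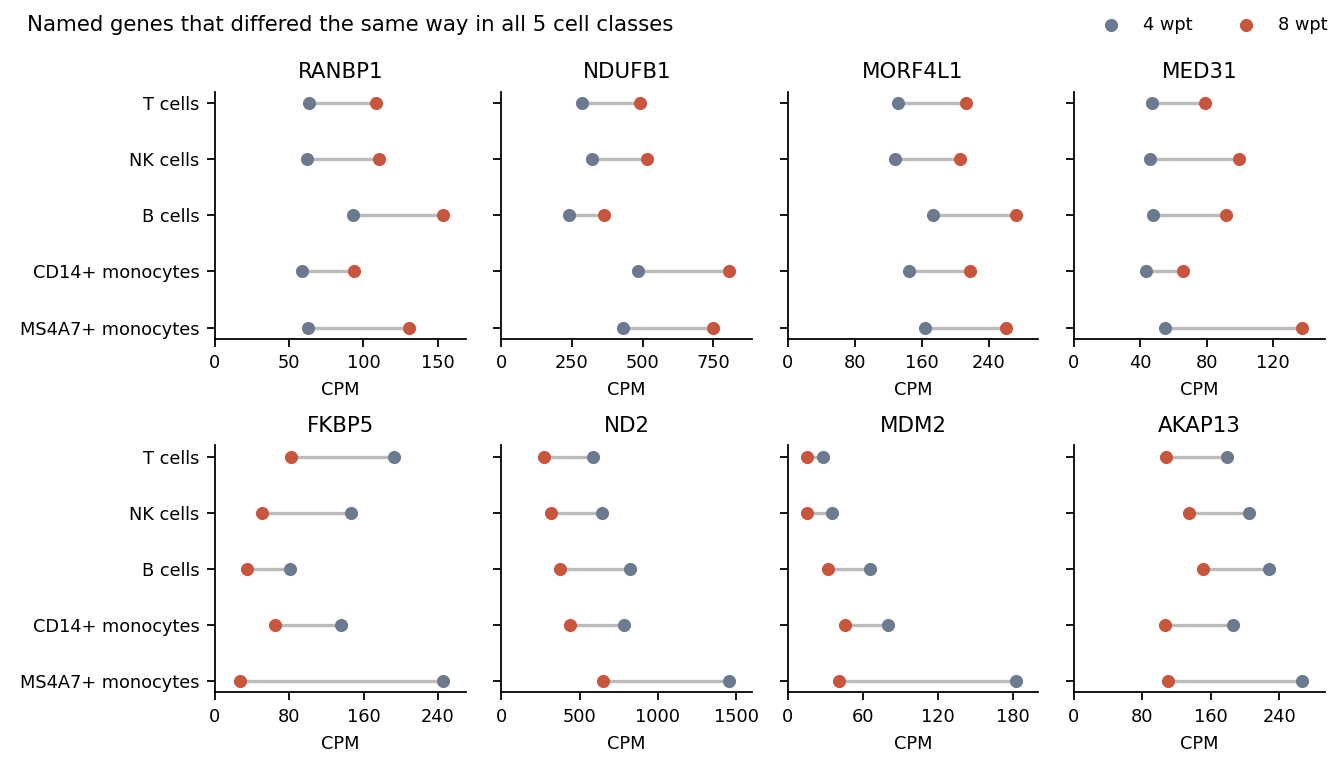
Level in CPM (linear axis from 0) of the 8 named genes that were called in the same direction in all 5 classes, at 4 wpt (grey) and 8 wpt (red), 1 library per time. The upper row holds the genes that were higher at 8 wpt and the lower row those that were lower, with FKBP5 in MS4A7+ monocytes at 245 and 27.5 CPM.

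Glucocorticoid-induced genes as a list were lower in all 5 classes by their median. The median log2 ratio was -0.56 over 15 measured members in T cells, with 5 members lower and 0 higher. It was -0.45 over 10 in NK cells (4 lower), -0.39 over 9 in B cells (2 lower), -0.27 over 13 in CD14+ monocytes (3 lower, 1 higher) and -0.94 over 12 in MS4A7+ monocytes (7 lower). The median over all genes measured lay between -0.03 and 0.03 in the first 4 of these classes and was -0.11 in MS4A7+ monocytes. The 7 lower members in MS4A7+ monocytes include FKBP5, DUSP1 and NFKBIA. DUSP1 is also counted in the immediate early list and NFKBIA in the NF-kB list, so these lists are not separate. KLF9, a transcription factor induced directly by the receptor, was 31.2 CPM at 4 wpt and 9.85 CPM at 8 wpt, 3.17-fold lower (1.98 to 5.29) in T cells. CXCR4, the receptor that holds cells in the bone marrow, was 121 and 66.7 CPM (1.81-fold lower, 1.49 to 2.2) in T cells and 42.9 and 8.37 CPM (5.13-fold lower, 2.55 to 11.4) in NK cells. DDIT4, an inhibitor of mTOR, was 119 and 63.1 CPM (1.89-fold lower, 1.55 to 2.31) in T cells and 68.4 and 22.3 CPM (3.07-fold lower, 1.44 to 7.29) in B cells. TSC22D3, which encodes the glucocorticoid-induced leucine zipper, was called in 1 class, MS4A7+ monocytes, at 509.7 and 323 CPM (1.58-fold lower, 1.15 to 2.21). CD163, the hemoglobin scavenger receptor, and PER1, a clock gene, were lower in CD14+ monocytes (515 and 312 CPM (1.65-fold lower, 1.44 to 1.9) and 85.9 and 53.9 CPM (1.59-fold lower, 1.14 to 2.25)), where the kinase SGK1 was higher (54.4 and 82.8 CPM (1.52-fold higher, 1.09 to 2.13)).

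Type I interferon-induced genes had lower medians of similar size in every class. The median log2 ratio was -0.33 over 36 members in T cells (8 lower, 0 higher), -0.36 over 29 in NK cells (4 lower), -0.30 over 20 in B cells (2 lower), -0.43 over 28 in CD14+ monocytes (7 lower) and -0.42 over 23 in MS4A7+ monocytes (3 lower, 1 higher). Over all genes measured, 4.93% were lower in T cells, 3.83% in NK cells, 4.32% in B cells and 3.8% in CD14+ monocytes. In MS4A7+ monocytes 7.74% were lower and 4.82% higher. IFI27, a mitochondrial protein strongly induced by interferon, was 117 and 57.7 CPM (2.03-fold lower, 1.65 to 2.5) in T cells, 236 and 91.2 CPM (2.59-fold lower, 2.06 to 3.28) in NK cells and 84.2 and 28.9 CPM (2.92-fold lower, 1.92 to 4.55) in CD14+ monocytes. OAS3, a sensor of double-stranded RNA, was 38.2 and 19.7 CPM (1.94-fold lower, 1.36 to 2.8) in T cells. ISG20, an exonuclease, was 340.3 and 199 CPM (1.71-fold lower, 1.45 to 2.02) in NK cells and 287 and 130.5 CPM (2.2-fold lower, 1.36 to 3.77) in MS4A7+ monocytes. The antiviral genes SAMD9L and MX2 were 202 and 107 CPM (1.9-fold lower, 1.51 to 2.4) and 156 and 93.3 CPM (1.67-fold lower, 1.3 to 2.16) in CD14+ monocytes, and MX2 was 93.3 and 52 CPM (1.79-fold lower, 1.05 to 3.17) in B cells. IFI6 was higher in MS4A7+ monocytes at 464 and 865 CPM (1.87-fold higher, 1.49 to 2.33). With all class totals thinned to the same UMIs the list median was 0.315 over 8 members in T cells and 0.056 over 9 in NK cells, fewer members than above. With cells thinned to 1000 UMIs it stayed below 0 in all 5 classes.

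**Figure D3:**
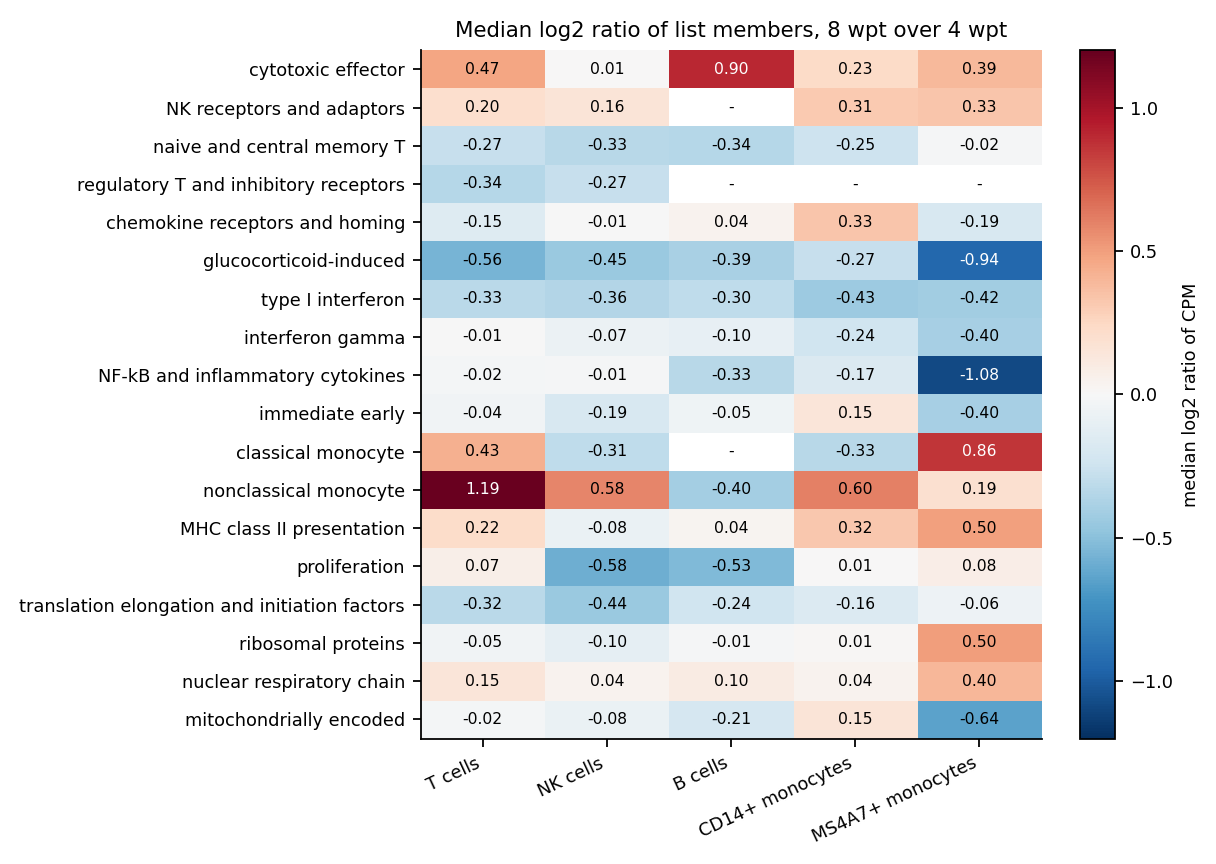
Median log2 ratio (8 wpt over 4 wpt) of the measured members of 18 gene lists in 5 cell classes, coloured from blue (lower at 8 wpt) to red (higher). A dash marks a list with under 3 measured members in that class. The glucocorticoid-induced and type I interferon rows are below 0 in every class, and the ribosomal protein row departs from 0 in MS4A7+ monocytes (0.50).

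T cells at 8 wpt had more transcripts of cytotoxic effector genes. Of 24 measured members, 11 were higher and 0 lower, with a median log2 ratio of 0.47. GZMB, the granzyme that triggers apoptosis in target cells, was 1265 CPM at 4 wpt and 2044 CPM at 8 wpt, 1.62-fold higher (1.55 to 1.69). NKG7, a granule membrane protein, was 669.8 CPM at 4 wpt and 1146 CPM at 8 wpt, 1.71-fold higher (1.62 to 1.81), and KLRD1, the CD94 receptor chain, was 214 CPM at 4 wpt and 485 CPM at 8 wpt, 2.27-fold higher (2.06 to 2.5). CCL4L1, a chemokine gene with near-identical copies between which reads may be split, was 112 and 183 CPM (1.63-fold higher, 1.41 to 1.88). The other called members named by the rule, CX3CR1 and S1PR5, encode receptors of circulating effector cells and were 85.1 and 194 CPM (2.28-fold higher, 1.95 to 2.66) and 10.7 and 37.6 CPM (3.51-fold higher, 2.33 to 5.39). The killing proteins perforin and granulysin moved less: PRF1 (243 and 289.6 CPM) and GNLY (985 and 1127 CPM) were not called, nor was GZMA (131 and 96.7 CPM).

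More T cells carried these transcripts at 8 wpt. With cells thinned to 1000 UMIs, 23.7% of T cells at 4 wpt and 44.0% at 8 wpt had a GZMB UMI (27.7% and 46.1% unthinned), against 1.41% and 2.99% of CD14+ monocytes, a class that should lack the gene. In T cells with a GZMB UMI the mean was 5.94 UMIs at 4 wpt and 5.32 at 8 wpt. KLRD1 went from 13.5% to 26.8% of T cells, CX3CR1 from 7.14% to 14.9% and GPR141 from 3.51% to 11.9%. The levels per GZMB-positive cell were thus close at both times while the share of such cells was larger at 8 wpt. Markers of NK cells summed to 1307 CPM in the T cell label at 4 wpt and 2220 CPM at 8 wpt (6 of 6 detected at both times). NKG7, KLRD1 and KLRF1 are among these markers, so the sum is not separate from the genes named as higher in T cells. The part of NK cells in the cytotoxic result was not tested. CD3 chains summed to 2539 and 2773 CPM in the T cell label.

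Among other T cell genes, the orphan receptor GPR141 was 37.8 CPM at 4 wpt and 121 CPM at 8 wpt, 3.21-fold higher (2.58 to 4.01), and KLRF1, an activating NK receptor, was 30.6 CPM at 4 wpt and 82.8 CPM at 8 wpt, 2.71-fold higher (2.11 to 3.5). The linker histones H1-2 and H1-4 were 42.9 and 8.95 CPM (4.79-fold lower, 2.98 to 8.09) and 60.2 and 19.7 CPM (3.06-fold lower, 2.19 to 4.35). Of 13 measured genes for NK receptors and adaptors, 2 were higher in T cells and 0 lower, KLRF1 and the signalling chain FCER1G (9.46 and 17.9 CPM (1.89-fold higher, 1.15 to 3.15)). Genes of naive and central memory T cells had a median log2 ratio of -0.27 over 14 members with 2 lower, the transcription factor FOXP1 (102 and 61.3 CPM (1.67-fold lower, 1.36 to 2.06)) and the costimulatory receptor CD28 (59 and 37.6 CPM (1.57-fold lower, 1.21 to 2.05)). Over all genes measured in T cells, 4.93% were lower. CCR7, the lymph node homing receptor, was found in 27.3% of thinned T cells at 4 wpt and 20.3% at 8 wpt.

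T cell activation genes split. CD40LG, the ligand through which helper T cells license B cells, was 89.2 and 152 CPM (1.71-fold higher, 1.45 to 2.0), and PPP3CA, the catalytic subunit of calcineurin, was 39.4 and 60.0 CPM (1.52-fold higher, 1.18 to 1.96), although its log2 ratio was -0.241 with all class totals thinned to the same UMIs. CD38, an ectoenzyme of activated cells, was 89.2 and 47.4 CPM (1.88-fold lower, 1.5 to 2.37) and IL2RA, the high-affinity chain of the interleukin 2 receptor, was 15.1 and 7.61 CPM (1.99-fold lower, 1.12 to 3.69). In all, 3 of 15 measured members were higher and 2 lower. The inhibitory receptors TIGIT (126 and 74.7 CPM (1.68-fold lower, 1.4 to 2.03)) and LAG3 (35.6 and 23.3 CPM (1.53-fold lower, 1.09 to 2.17)) were the 2 of 9 measured regulatory and inhibitory genes that were called. That count stands beside 4.93% lower over all genes measured in T cells. The B cell follicle homing receptor CXCR5 was 18.6 and 8.95 CPM (2.08-fold lower, 1.23 to 3.64), but its log2 ratio was 1.58 at equal totals, where few UMIs remain. Proliferation genes had a median log2 ratio of 0.07 over 18 members with 3 lower, MKI67 (20.5 and 5.82 CPM (3.52-fold lower, 1.92 to 6.97)), the kinetochore gene CENPF (26.5 and 14.3 CPM (1.85-fold lower, 1.22 to 2.87)) and the replication helicase MCM6 (18.6 and 10.7 CPM (1.73-fold lower, 1.06 to 2.91)). Of 16 measured genes of apoptosis and p53, 4 were lower, among them the p53 target SESN1 (73.2 and 42.5 CPM (1.72-fold lower, 1.35 to 2.21)), and GADD45B, a stress-induced gene, was higher (55.2 and 87.7 CPM (1.59-fold higher, 1.29 to 1.96)).

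In NK cells GZMB was 11206 and 10804 CPM and PRF1 1082 and 1088 CPM, neither called. The cytotoxic effector list had a median log2 ratio of 0.01 over 23 measured members. Of these, 3 were higher and 0 lower, beside 4.16% higher and 3.83% lower among all genes measured in NK cells. The 3 were CCL4L1 (401 and 663 CPM (1.65-fold higher, 1.47 to 1.86)), TBX21, the T-bet transcription factor (78.2 and 145 CPM (1.85-fold higher, 1.42 to 2.44)), and IFNG. IFNG, the cytokine interferon gamma, was 11 UMIs at 4 wpt and 50 at 8 wpt (10.5 and 41.8 CPM), 3.99-fold higher (2.05 to 8.5). It came from 9 cells at 4 wpt and 45 cells at 8 wpt. Its T cell level differed in the same direction, 7.57 and 20.1 CPM (2.66-fold higher, 1.59 to 4.57).

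KLF2, which drives the exit of lymphocytes into blood, was 360.3 CPM at 4 wpt and 738 CPM at 8 wpt, 2.05-fold higher (1.81 to 2.32) in NK cells, and 31.7% of thinned cells at 4 wpt and 48.2% at 8 wpt had a UMI. The trafficking receptor S1PR1, a target of KLF2, was 45.8 and 77.8 CPM (1.7-fold higher, 1.19 to 2.46) and the integrin chain ITGB7 was 66.7 and 125 CPM (1.88-fold higher, 1.41 to 2.53). Of 19 measured chemokine receptor and homing genes, 3 were higher and 3 lower. Among NK receptors and adaptors 2 of 12 were higher and 0 lower, the signalling chain CD247 (500.4 and 761 CPM (1.52-fold higher, 1.36 to 1.7)) and KLRF1 (326 and 521 CPM (1.6-fold higher, 1.4 to 1.83)).

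The gene with the highest ratio among the named NK genes was HES4, a Notch-pathway repressor used as a marker of nonclassical monocytes, with 3 UMIs at 4 wpt and 36 at 8 wpt (2.86 and 30.1 CPM), 10.5-fold higher (3.33 to 53.5) spread over 3 and 34 cells. RHBDF2, a regulator of TNF shedding, was 9.53 and 38.5 CPM (4.04-fold higher, 2.01 to 8.97) and BRI3 was 9.53 and 34.3 CPM (3.6-fold higher, 1.77 to 8.06). Lower genes were H1-4 (99.1 and 24.3 CPM (4.09-fold lower, 2.69 to 6.4)) and CASP4, an inflammatory caspase (81 and 25.9 CPM (3.12-fold lower, 2.05 to 4.88)). TNFAIP3, the A20 inhibitor of NF-kB, fell from 20 UMIs to 5 (4.56-fold lower (1.66 to 15.5)). The list of translation-related genes had a median log2 ratio of -0.44 over 17 members, with 4 lower and 0 higher. Its median was also below 0 in T cells (-0.32), B cells (-0.24), CD14+ monocytes (-0.16) and MS4A7+ monocytes (-0.06). The lowest medians were in NK, T and B cells, the classes with the largest gap in depth, and the part of depth was not tested. In NK cells the lower members were EEF1B2 (1191 and 765 CPM (1.56-fold lower, 1.43 to 1.7)), BTF3 (1072 and 649 CPM (1.65-fold lower, 1.51 to 1.81)), PABPC1 (958 and 615 CPM (1.56-fold lower, 1.42 to 1.72)) and EIF3H (409 and 268 CPM (1.53-fold lower, 1.32 to 1.77)). Proliferation genes had a median of -0.58 over 12, with MKI67 (27.6 and 9.2 CPM (3.0-fold lower, 1.46 to 6.66)) and CENPF (26.7 and 10.9 CPM (2.45-fold lower, 1.23 to 5.16)) lower, and this median was 0.068 with cells thinned to 1000 UMIs. With cells thinned in that way the number of lower genes was 173.

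B cells had few UMIs and many of their large ratios came from few cells. B cell identity genes had a median log2 ratio of 0.19 over 17 members, and CD22, an inhibitory coreceptor of the B cell receptor, was the 1 called member at 147 CPM at 4 wpt and 250.2 CPM at 8 wpt, 1.7-fold higher (1.24 to 2.34). FCER2, the CD23 receptor of naive B cells, was 5 UMIs at 4 wpt and 15 at 8 wpt (10.4 and 37.2 CPM), 3.59-fold higher (1.24 to 12.6). JCHAIN, the joining chain of secreted antibody, was 642 and 1256 CPM (1.95-fold higher, 1.69 to 2.26), with 40.6% of its 8 wpt UMIs in 1 cell. AIM2, a DNA sensor expressed in memory B cells, was 226 and 134 CPM (1.69-fold lower, 1.21 to 2.39).

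Of 14 measured heat shock and chaperone genes in B cells, 3 were lower and the median log2 ratio was -0.07. Over all genes measured in B cells, 4.32% were lower. HSPA5, the BiP chaperone, was 162 CPM at 4 wpt and 57 CPM at 8 wpt, 2.84-fold lower (1.76 to 4.74), HSP90B1 was 433 and 282 CPM (1.53-fold lower, 1.22 to 1.94) and HSPD1 was 187 and 89.2 CPM (2.09-fold lower, 1.41 to 3.17). In 4 wpt B cells a single cell held 37.2% of the HSPA5 UMIs and 57.5% of those of RRM2, a subunit of ribonucleotide reductase made in S phase. RRM2 was 40 UMIs at 4 wpt and 2 at 8 wpt (82.9 and 4.95 CPM), 16.7-fold lower (4.34 to 143), and CENPF was 80.8 and 37.2 CPM (2.18-fold lower, 1.17 to 4.25), the 2 lower of 10 proliferation genes measured.

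Other B cell genes lower at 8 wpt were KIAA1143 (49.7 and 4.95 CPM (10.0-fold lower, 2.49 to 87.7)), the nucleolar GNL3 (51.8 and 7.43 CPM (6.97-fold lower, 2.13 to 36.1)), RGS10, a regulator of G protein signalling (41.4 and 4.95 CPM (8.37-fold lower, 2.03 to 73.8)), and TOGARAM1 (64.2 and 12.4 CPM (5.19-fold lower, 2.0 to 17.1)). Each of these rests on 5 or fewer UMIs at 8 wpt. Higher genes were HCST, the DAP10 signalling adaptor (141 and 307 CPM (2.18-fold higher, 1.61 to 2.97)), RHOT1, which tethers mitochondria to transport motors (10.4 and 49.5 CPM (4.78-fold higher, 1.74 to 16.3)), and FAM110A (10.4 and 47.1 CPM (4.54-fold higher, 1.64 to 15.6)). PLAC8 was 5 UMIs at 4 wpt and 69 at 8 wpt (10.4 and 171 CPM), 16.5-fold higher (6.74 to 52.4), from 9 cells, 1 of which held 44.9% of the UMIs.

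Transcripts of other cell types appeared in the B cell label at 8 wpt. GZMB had 4 UMIs in 4 cells at 4 wpt and 149 UMIs in 11 cells at 8 wpt. GNLY had 3 and 44 UMIs and NKG7 had 8 and 31. The platelet genes PPBP (10.4 and 64.4 CPM (6.21-fold higher, 2.35 to 20.7)) and PF4 (1 and 21 UMIs, 71.4% of the latter in 1 cell) were also higher. Markers of NK cells, NKG7 among them, summed to 139 and 359 CPM in this label. Markers of platelets, PPBP and PF4 among them, summed to 14.5 and 176 CPM. The part of NK cells and platelets in these ratios was not tested. Without possible doublets, the median log2 ratio of the cytotoxic list in B cells was -0.034 against 0.90 with them. The doublet rule uses markers of T and NK cells, the list member NKG7 among them. The lower median is thus not separate from the rule.

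**Figure D4:**
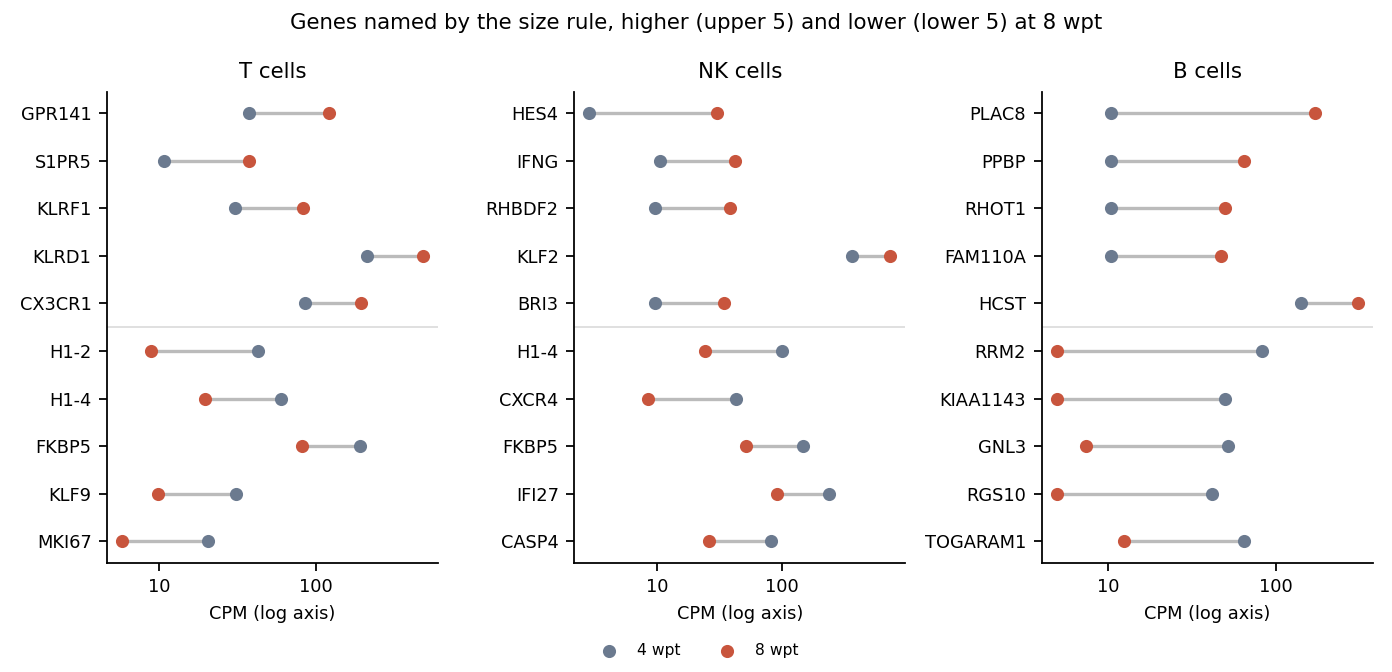
Level in CPM (log axis) at 4 wpt (grey) and 8 wpt (red) of the 10 genes named in each lymphocyte class, 1 library per time. In T cells KLRD1 (214 and 485 CPM) has the highest 8 wpt level of the 10, and in B cells RRM2, KIAA1143 and RGS10 rest on 2 UMIs each at 8 wpt.

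CD14+ monocytes at 8 wpt had lower levels of several classical genes and higher levels of some nonclassical genes and of the dendritic gene CD1C. Of 13 measured classical monocyte genes, 3 were lower and 1 higher (median log2 ratio -0.33). THBS1, the matrix protein thrombospondin 1, was 75.7 CPM at 4 wpt and 18.3 CPM at 8 wpt, 4.14-fold lower (2.5 to 7.2), S100A12, a calcium-binding alarmin, was 56.1 and 31.8 CPM (1.77-fold lower, 1.15 to 2.77), and CD163 is given above. CD36, a scavenger receptor, was higher but from 8 and 18 UMIs (2.55-fold higher (1.05 to 6.76)). The defining genes CD14 (651 and 630.3 CPM) and LYZ (10896 and 10676 CPM) were not called.

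Nonclassical genes were higher in the same cells in 4 of 10 measured members (median log2 ratio 0.60, 0 lower). LST1, an inhibitory adaptor of myeloid cells, was 92.7 and 156 CPM (1.68-fold higher, 1.31 to 2.16), CX3CR1, the fractalkine receptor, was 67.2 and 112 CPM (1.66-fold higher, 1.24 to 2.24), and HMOX1, heme oxygenase 1, was 33.2 and 72.2 CPM (2.18-fold higher, 1.46 to 3.29). C1QB was 36.6 and 58.7 CPM (1.6-fold higher, 1.07 to 2.43), with 65.1% of its 4 wpt UMIs in 1 cell. When CD14+ and MS4A7+ monocytes were pooled, the median of this list was -0.225 and LST1 (-0.021) and CX3CR1 (-0.142) were near or below a log2 ratio of 0, so the direction holds within the label and not over all monocytes.

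CD1C, the lipid-presenting molecule of dendritic cells, was 156 CPM at 4 wpt and 370.5 CPM at 8 wpt, 2.38-fold higher (1.99 to 2.85), and 6.36% of thinned CD14+ monocytes at 4 wpt and 23.4% at 8 wpt had a UMI. IRF8, a transcription factor of dendritic cells and monocytes, was 56.1 and 90.4 CPM (1.61-fold higher, 1.16 to 2.24). Its log2 ratio was -0.252 when all class totals were thinned to the same UMIs. CD1C and IRF8 were the 2 higher of 6 measured members of the dendritic cell list, with 0 lower and a median log2 ratio of 0.13. Over all genes measured in this label, 4.79% were higher. The 7 dendritic markers in the files summed to 253 and 502 CPM in this label. CD1C and IRF8 are among them, so the sum is not separate from these genes. The part of dendritic cells in the CD1C result was not tested. MHC class II genes had a median log2 ratio of 0.32 over 11 members, with 0 called. PLVAP, a vesicle protein, was 9.36 and 34.6 CPM (3.7-fold higher, 1.84 to 8.06) and DNASE2, the lysosomal nuclease, was 5.1 and 23.1 CPM (4.52-fold higher, 1.8 to 13.5). When both monocyte labels were pooled the log2 ratio of DNASE2 was -0.020.

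Interferon gamma-induced genes in CD14+ monocytes had a median of -0.24 over 10, with 2 lower. IDO1, which degrades tryptophan, was 315 and 183 CPM (1.72-fold lower, 1.44 to 2.06). CXCL10, a chemokine, went from 25 to 9 UMIs (2.46-fold lower (1.11 to 5.98)), but 84.0% of the 4 wpt UMIs were in 1 cell, and without the top cell of each library its log2 ratio was 0.702. RBIS, a ribosome biogenesis factor (236 and 94.3 CPM (2.51-fold lower, 1.99 to 3.19)), KMT2D, a histone methyltransferase (26.4 and 4.81 CPM (5.48-fold lower, 2.11 to 18.1)), and SYTL3 (17.9 and 2.89 CPM (6.19-fold lower, 1.85 to 32.4)) were the other lower genes named.

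Platelet genes had the highest ratios among the genes named in CD14+ monocytes. PPBP, the precursor of platelet basic protein, was 20 UMIs at 4 wpt and 141 at 8 wpt (17 and 136 CPM), 7.97-fold higher (4.97 to 13.5), and PF4, platelet factor 4, was 5 UMIs at 4 wpt and 44 at 8 wpt (4.25 and 42.3 CPM), 9.95-fold higher (3.96 to 32.2). The 8 platelet markers, PPBP and PF4 included, summed to 26.4 CPM in this label at 4 wpt (3 detected). At 8 wpt the sum was 208 CPM (8 detected). Without possible doublets the log2 ratio of PPBP was 1.97. The doublet rule uses the platelet markers, PPBP and PF4 included, so that value is not separate from the rule. The red cell gene HBA went the other way, from 1856 to 419.5 CPM (4.42-fold lower (3.99 to 4.91)), but 81.3% of its 4 wpt UMIs were in 1 cell, and without the top cell of each library its log2 ratio was 0.240.

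MS4A7+ monocytes, the label with the fewest cells at 8 wpt, had higher complement C1q, antigen presentation and ribosomal protein levels, and lower inflammatory gene levels. The 3 chains of C1q, the starter of the classical complement cascade, were higher. C1QA was 8 UMIs at 4 wpt and 53 at 8 wpt (16.8 and 364 CPM), 21.7-fold higher (10.2 to 52.8), C1QB was 233 CPM at 4 wpt and 831 CPM at 8 wpt, 3.57-fold higher (2.74 to 4.66) and C1QC was 81.8 CPM at 4 wpt and 412 CPM at 8 wpt, 5.04-fold higher (3.31 to 7.74). These UMIs came from few cells, 11 of 65 for C1QA at 8 wpt. The nonclassical markers MS4A7 (931 and 569.9 CPM (1.63-fold lower, 1.29 to 2.09)) and CDKN1C, a cell cycle inhibitor (461 and 172 CPM (2.69-fold lower, 1.77 to 4.25)), were lower, and HMOX1 was higher (201 and 316 CPM (1.57-fold higher, 1.08 to 2.25)).

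CST3, the protease inhibitor cystatin C, was 539 CPM at 4 wpt and 2506 CPM at 8 wpt, 4.65-fold higher (3.95 to 5.47), and 34.1% of thinned MS4A7+ monocytes at 4 wpt and 66.7% at 8 wpt had a UMI. LYZ, lysozyme, was 797 CPM at 4 wpt and 2279.6 CPM at 8 wpt, 2.86-fold higher (2.46 to 3.32). VCAN (107 and 192 CPM (1.8-fold higher, 1.09 to 2.9)) and FCN1 (92.3 and 192 CPM (2.08-fold higher, 1.249 to 3.42)) were also higher among the 5 measured classical genes. The 8 CD14+ monocyte markers include LYZ, VCAN and FCN1. They summed to 1095 CPM in this label at 4 wpt and 2753 CPM at 8 wpt (7 detected at both times). The same sum was 25014 and 21991 CPM in the CD14+ label. The 8 MS4A7+ markers summed to 4197 and 4340 CPM in the MS4A7+ label. Pooling both monocyte labels moved the log2 ratios of VCAN to -0.184 and FCN1 to -0.018, and whether cells near the border of the labels contribute was not tested.

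Antigen presentation genes of class II were higher in 4 of 10 measured members, with a median log2 ratio of 0.50 and 0 lower. MAMU-DRB1 and MAMU-DRA, the chains of the macaque DR molecule, were 2924 and 5246 CPM (1.79-fold higher, 1.64 to 1.96) and 1871 and 3570.5 CPM (1.91-fold higher, 1.71 to 2.13). IFI30, a lysosomal thiol reductase, was 1219 and 2026 CPM (1.66-fold higher, 1.44 to 1.92) and MAMU-DMB, a peptide exchange factor, was 378 and 645 CPM (1.71-fold higher, 1.32 to 2.21). Reads of MAMU-DRB1 may be split with near-identical copies. Of 14 class I genes, the proteasome activator PSME2 (405 and 652 CPM (1.61-fold higher, 1.247 to 2.07)), CALR (315 and 488 CPM (1.55-fold higher, 1.15 to 2.07)) and TAPBP (220.3 and 357 CPM (1.62-fold higher, 1.14 to 2.28)) were higher, and NLRC5, the transactivator of class I, was lower (98.6 and 20.6 CPM (4.79-fold lower, 1.54 to 24)).

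NF-kB and inflammatory genes were lower in 6 of 11 measured members with 0 higher (median log2 ratio -1.08). SOD2, the mitochondrial superoxide dismutase, was 679.6 CPM at 4 wpt and 316 CPM at 8 wpt, 2.15-fold lower (1.58 to 3.0). BCL2A1, an antiapoptotic gene, was 543 CPM at 4 wpt and 165 CPM at 8 wpt, 3.3-fold lower (2.17 to 5.24). TNF, the cytokine, was 84 UMIs at 4 wpt and 5 at 8 wpt (176 and 34.3 CPM), 5.13-fold lower (2.11 to 16.2) and NFKBIA, the inhibitor of NF-kB, was 209.8 and 96.1 CPM (2.18-fold lower, 1.24 to 4.14). Immediate early genes were lower in 4 of 12 and higher in 1 (median -0.40). DUSP1, a phosphatase of MAP kinases, was 648 CPM at 4 wpt and 199 CPM at 8 wpt, 3.26-fold lower (2.22 to 4.94), JUNB was 373 and 240.3 CPM (1.55-fold lower, 1.08 to 2.3) and ATF3 was 151 and 54.9 CPM (2.75-fold lower, 1.32 to 6.61), while the RNA-binding gene ZFP36L1 was higher at 266 and 453 CPM (1.7-fold higher, 1.24 to 2.31).

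Ribosomal protein genes separated MS4A7+ monocytes from the other classes by their counts. Of 74 measured, 30 were higher and 1 lower in MS4A7+ monocytes (median log2 ratio 0.50), against 0 higher and 1 lower of 75 in T cells, 0 and 0 in NK cells, 0 and 3 in B cells, and 0 and 0 in CD14+ monocytes. They summed to 10.7% of UMIs in MS4A7+ monocytes at 4 wpt and 15.2% at 8 wpt. RPLP1 was 3511 and 5836 CPM (1.66-fold higher, 1.53 to 1.81), RPL10 2406 and 4813 CPM (2.0-fold higher, 1.82 to 2.2) and RPL32 2284 and 4017 CPM (1.76-fold higher, 1.59 to 1.95). Nuclear genes of the respiratory chain were higher in 15 of 66 members and lower in 1 (median 0.40), among them COX4I1 (864 and 1346 CPM (1.56-fold higher, 1.31 to 1.85)), ATP5ME (375 and 687 CPM (1.83-fold higher, 1.42 to 2.35)) and NDUFA2 (451 and 679.8 CPM (1.51-fold higher, 1.18 to 1.92)). Mitochondrially encoded genes were lower in 4 of 11 and higher in 1 (median -0.64), with COX3 at 14834 and 9318 CPM (1.59-fold lower, 1.5 to 1.69), ND1 at 1645 and 899 CPM (1.83-fold lower, 1.52 to 2.22) and COX1 at 724 and 1099 CPM (1.52-fold higher, 1.251 to 1.84). With totals taken without ribosomal, mitochondrial, hemoglobin and immunoglobulin genes, the numbers of genes called stayed within 1.5 times of those given in every class.

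Other named genes lower in MS4A7+ monocytes were LBH, a transcription cofactor (159 and 13.7 CPM (11.6-fold lower, 3.11 to 97.6)), and NKTR, a cyclophilin-related protein (153 and 20.6 CPM (7.43-fold lower, 2.45 to 36.9)), with 2 and 3 UMIs at 8 wpt. NT5DC1 had 30 UMIs at 4 wpt and 0 at 8 wpt, at least 3.05-fold lower against a floor of 3 counts. PADI4, which converts arginine to citrulline, was higher at 6 UMIs at 4 wpt and 14 at 8 wpt (12.6 and 96.1 CPM), 7.64-fold higher (2.76 to 24.2). ZEB2, a repressor of transcription, was lower at 598 and 357 CPM (1.67-fold lower, 1.24 to 2.3). GZMB (5 and 46 UMIs, the latter in 3 cells) and GNLY (8 and 28 UMIs) were higher, and markers of NK cells summed to 6297 and 8384 CPM in this label. Of the 3002 and 1221 UMIs behind those sums, FCER1G gave 2342 and 902 and TYROBP 654 and 299, and monocytes express both genes. Their part in the GZMB and GNLY ratios was not tested. With both monocyte labels pooled the log2 ratio of GNLY was -0.462.

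**Figure D5:**
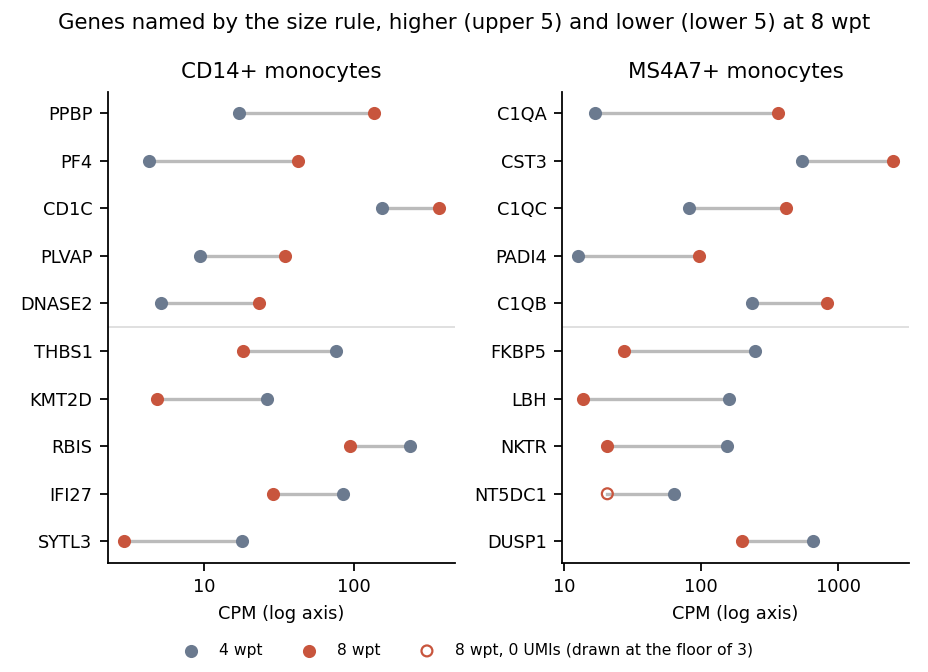
Level in CPM (log axis) at 4 wpt (grey) and 8 wpt (red) of the 10 genes named in each monocyte label, 1 library per time. An open circle marks a library with 0 UMIs, drawn at the floor of 3 counts. CST3 in MS4A7+ monocytes (539 and 2506 CPM) has the highest level plotted.

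Genes private to a class were called at 2-fold or more in it and stayed between 20% below and 25% above their 4 wpt level in the other 4. There were 17 higher (0.441%) and 42 lower (1.09%) among the 3856 genes, and most were in MS4A7+ monocytes (13 higher, 32 lower) or B cells (4 higher, 6 lower), the classes with the fewest UMIs. The balance of higher and lower private genes turned with the scaling, to 28 higher and 28 lower with TMM and 33 higher and 24 lower with median-of-ratios. NK cells had 3 (0 higher), CD14+ monocytes 1 (0 higher) and T cells 0. In MS4A7+ monocytes RPL10 was higher as given above, between 0.891 and 1.03 times its 4 wpt level elsewhere. The splicing regulator HNRNPH2 was 455 and 996 CPM (2.19-fold higher, 1.76 to 2.71) in MS4A7+ monocytes and DAD1, a subunit of the oligosaccharyltransferase, 90.2 and 240.3 CPM (2.66-fold higher, 1.66 to 4.26). Lower there were the splicing factor SREK1 (325 and 82.4 CPM (3.95-fold lower, 2.2 to 7.8)), the RNA helicase DDX5 (1108 and 508 CPM (2.18-fold lower, 1.71 to 2.82)) and the ubiquitin ligase adaptor WSB1 (950.2 and 433 CPM (2.2-fold lower, 1.68 to 2.91)).

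In B cells HSPA5 was lower (2.84-fold lower (1.76 to 4.74)), while its ratio ran from 0.927 to 1.01 in the other classes. RBL2, a retinoblastoma family member, was 62.2 and 17.3 CPM (3.59-fold lower, 1.54 to 9.67) and KRIT1 was 106 and 44.6 CPM (2.37-fold lower, 1.36 to 4.31). TMEM147 (66.3 and 144 CPM (2.17-fold higher, 1.38 to 3.45)), the lysosomal protease CTSD (41.4 and 86.7 CPM (2.09-fold higher, 1.17 to 3.82)) and EIPR1 (29 and 64.4 CPM (2.22-fold higher, 1.12 to 4.6)) were higher in B cells. In NK cells CAPG, an actin-capping protein, was 90.6 and 42.7 CPM (2.12-fold lower, 1.49 to 3.04), ELMOD3 39.1 and 17.6 CPM (2.22-fold lower, 1.28 to 3.96) and AGPAT1, an enzyme of phospholipid synthesis, 35.3 and 15.9 CPM (2.22-fold lower, 1.24 to 4.08). In CD14+ monocytes the Polycomb gene RING1 was 29.8 and 13.5 CPM (2.21-fold lower, 1.16 to 4.45). A private call does not show that the class differs from the others, since that difference was not tested.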

How the data were processed

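The authors deposited, for each library, raw UMI counts per gene row and cell and a table with 1 cell type label per barcode. Libraries were 10x Genomics 5' V1 per the labels' protocols, and Cell Ranger 3.1.0, Seurat 3.2.3 and the build Mmul_10 are named per the submitters' processing notes. How cells and genes were filtered and labelled is not given in the sources used here. The tables hold 15354 gene rows, of which 2159 kept an identifier without a symbol. UMIs were summed per class and library, scaled to CPM, and compared as ratios with exact conditional binomial 95% intervals (Python 3.11.15, scipy 1.17.1). Shares have exact Clopper-Pearson intervals. UMIs within a class share 1 library, so intervals cover counting error only. A count of 0 was set against a floor of 3 counts. The median log2 ratio of a list used an offset of 0.5 UMIs and lists with 3 or more measured members.

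Named genes were, in each class, the 5 higher and 5 lower with the interval bound farthest from 1 (UMIs in at least 5% of cells, at least 10% of the level of the highest class, and no ribosomal, mitochondrial, hemoglobin, immunoglobulin, T cell receptor or unnamed gene), up to 8 shared and 3 private genes per direction, and up to 4 called members of each list described with the members that define it. Members and lists were chosen with earlier results of these data known. Genes given as not called (PRF1, GNLY, GZMA and GZMB, CD14 and LYZ) and those of other cell types were named after their values were seen. Possible doublets were cells over 3 times the median UMIs of their class, or with 2 or more markers of another lineage at 2 or more UMIs each. T and NK cells were taken as 1 lineage, so mixtures of the 2 were not sought by markers. Possible doublets were 43 at 8 wpt (1.67%) and 27 at 4 wpt (1.43%), and were kept. Thinning to 1000 UMIs left out 52 of 1174 T cells at 8 wpt and 35 of 889 at 4 wpt, and 11 of 65 and 28 of 207 MS4A7+ monocytes. The calling step was tested on simulated data. Alternative scalings used edgeR 4.0.16 and DESeq2 1.42.0.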

Additional observations from a re-analysis of the deposited data

Results flagged for a closer look

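Several named genes were called in opposite directions in different classes, and the difference between classes was not tested. Values are ratios of 8 wpt to 4 wpt. GNLY was at 17.5 in B cells and 11.5 in MS4A7+ monocytes but 0.235 in CD14+ monocytes. With both monocyte labels pooled, the log2 ratio of GNLY was -0.462. CCL5 was at 2.73 in B cells and 0.428 in CD14+ monocytes, but its log2 ratio in B cells was -0.618 without possible doublets. HBA was at 2.75 in T cells, 17.7 in B cells and 2.18 in MS4A7+ monocytes, against 0.409 in NK cells and 0.226 in CD14+ monocytes. Its log2 ratio in CD14+ monocytes was 0.240 once the cell with the most HBA UMIs was left out of each library. BCL2A1 was at 1.83 in NK cells, 0.521 in CD14+ monocytes and 0.303 in MS4A7+ monocytes. ZEB2, which promotes terminal effector differentiation of T cells, was at 2.07 in T cells and 0.597 in MS4A7+ monocytes. MAMU-DRA was at 1.91 in MS4A7+ monocytes and 0.655 in NK cells, and IFI30 at 1.66 in MS4A7+ monocytes and 0.575 in T cells. CD1C was at 2.38 in CD14+ monocytes and 0.614 in T cells. KIAA1143 was at 2.01 in CD14+ monocytes and 0.0996 in B cells, the latter from 2 UMIs at 8 wpt.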

How the results depend on the processing

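No paired analysis was possible because each time is 1 library and the labels give no replicate numbers. All 31 recomputed ratios of cell shares stayed within the counting interval of the ratio reported. For T cells, B cells and dendritic cells that interval includes 1, so a change of direction was not checked. The Platelet label was not recomputed. Of 152 recomputed counts of genes, 108 stayed within 1.5 times. Of 2376 recomputed gene ratios, 2191 stayed within their interval, 169 moved beyond it and 16 changed sign. The 2191 include 216 ratios under each alternative UMI minimum, a setting that cannot change a ratio. Pooling the labels of a lineage likewise cannot change the ratios of T and NK cells. TMM and median-of-ratios scaling shifted log2 ratios by at most 0.08 and 0.10 (MS4A7+ monocytes) and changed the sign of none. They gave 28 and 33 private higher genes, and median-of-ratios scaling 24 private lower genes. With each cell weighted equally, lower genes were 452 in B cells, 440 in CD14+ and 558 in MS4A7+ monocytes, and shared genes 7 higher and 12 lower.

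With cells thinned to 1000 UMIs, lower genes were 173 in NK cells, and higher and lower genes were 97 and 91 in B cells, 150 and 132 in CD14+ and 143 and 127 in MS4A7+ monocytes. Shared genes were then 2 and 4, and private lower genes 7. The median of proliferation genes in NK cells was 0.068, that of cytotoxic genes in B cells -0.164, and the log2 ratio of CXCL10 in CD14+ monocytes 0.00196. Without possible doublets 1 shared gene was higher, the cytotoxic median in B cells was -0.034 and CCL5 in B cells was at -0.618. The doublet rule uses NKG7, a member of the cytotoxic list, so that median is not separate from the rule. A minimum of 50 UMIs gave 140 and 144 genes in B cells, 2 shared higher genes, and 11 and 17 private genes. With no minimum, 76 list medians lay at least 0.25 from 0 in log2 ratio, against 50 of 134 with the minimum used. With the labels of a lineage pooled, lower genes were 408 in B cells and 725 in each monocyte label, shared genes 7 and 14, and private lower genes 25. In CD14+ monocytes the nonclassical median was then -0.225, DNASE2 -0.020, LST1 -0.021 and CX3CR1 -0.142. In MS4A7+ monocytes the classical median was -0.024, VCAN -0.184, FCN1 -0.018 and GNLY -0.462.

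With all class totals thinned to 145638 UMIs, higher and lower genes were 73 and 61 in T cells, 96 and 62 in NK cells, 92 and 94 in B cells and 92 and 48 in CD14+ monocytes, with 196 lower in MS4A7+ monocytes, 0 and 4 shared, and 8 and 3 private. The type I interferon median was 0.315 in T cells and 0.056 in NK cells, and the proliferation median in NK cells 0.252. Log2 ratios were 1.22 for MDM2 and 1.18 for DUSP1 in NK cells, -0.241 for PPP3CA and 1.58 for CXCR5 in T cells, and -0.252 for IRF8 and 1.58 for CXCL10 in CD14+ monocytes. Fewer UMIs enter these fits by construction. Leaving out the cell with the most UMIs of a gene in each library, chosen after seeing the data, put CXCL10 at 0.702 and HBA at 0.240 in CD14+ monocytes. Where no construction shows the cause of a shift, the cause was not tested.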
